A study of Rattus norvegicus and Sus scrofa and Bos taurus with 188 samples.

Results

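The RAB family and its regulators were examined in the RNA of pig morulae marked PG. Labels of sister samples spell this mark out as parthenogenetically activated: such an embryo starts from an egg stimulated without sperm, and its genome is maternal only. Members were all genes whose symbol is RAB followed by a digit, or begins with RABGAP, RABGEF, RABEP, RABIF or TBC1D and a digit, together with the GDI genes. This gave 97 of the 15877 gene names of the table, 53 RAB GTPases and 44 regulators and effectors, in 249 of its 37571 transcript rows. The series profiles histone marks, DNA methylation and RNA in gametes and early embryos of several mammals, with 188 samples in 90 groups by their labels. The group used here has 4 Smart-seq2 libraries of polyadenylated RNA, whose values the authors merged into 1 column of FPKM (fragments scaled by the length of the transcript and by the mapped fragments of the library). How many embryos went into a library was not given in the sources used here.

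RAB proteins are small GTPases of the RAS superfamily that mark the membranes of a cell and direct traffic between them. Exchange factors load a RAB with GTP on its membrane, the GTP-bound form recruits effectors such as tethers and motors, and GTPase-activating proteins, most of which carry a TBC domain, return it to the GDP-bound form, which GDI proteins then draw off the membrane. RAB11 recycling is known from epithelial cells for returning E-cadherin, the adhesion protein of compaction in the morula, to the cell surface.

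Since all libraries share 1 column, a spread between them cannot be computed, no second group was compared, and no p-value can be given. Each value is the highest transcript row of a gene, the depth is unknown, and levels of different genes can be compared only as far as the authors' transcript lengths and assignment of reads hold. Reads of near-identical paralogues or retrocopies could have been shared between genes in that assignment. In a bulk sample a gene expressed strongly in a few cells and one expressed weakly in all of them cannot be told apart. The morula label was set against marker genes. All 8 morula and pluripotency markers stood between 5.36 and 194 FPKM, and all 6 egg markers between 1.44 and 90.3 FPKM. RNA kept from the egg and RNA made by the embryo cannot be told apart here, so expressed below means only that RNA was present. None of 9 cumulus and granulosa markers reached 1 FPKM, their highest being CYP19A1 at 0.835 FPKM, and TNFAIP6, FSHR and INHA were listed at 0.

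Of the 97 members, 67 (69.1%) stood at 1 FPKM or more, the level used here to call a gene expressed, beside 48.8% of all genes and 49.4% of those that are not names of Rfam RNA families. The median member was at 2.93 FPKM and the median of all genes at 0.916 FPKM. Of the RAB GTPases 36 of 53 (67.9%) passed, and their median level was 3.54 FPKM. Of the regulators and effectors 31 of 44 (70.5%) passed, and their median level was 2.50 FPKM. Both shares lay above that of the whole table, which describes this 1 table and was not tested. At 10 FPKM or more were 25 members (25.8%), beside 20.2% of all genes. These 25 comprised 17 RAB GTPases (32.1% of that class) and 8 regulators and effectors (18.2%, below the share of all genes). The summed rows of all members took 0.531% of the FPKM total.

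The levels were concentrated in few RABs. The highest was RAB11A, which directs recycling endosomes to the surface, at 123 FPKM, rank 388 of the 15877 genes. RAB2A, which acts between the endoplasmic reticulum (ER) and the Golgi, stood next at 123 FPKM, rank 389. They were followed by RAB18 of the ER and lipid droplets at 84.3 FPKM, RAB1A of ER to Golgi transport at 81.3 FPKM and RAB10 of surface delivery at 59.7 FPKM. By highest rows these 5 genes held 54.0% of the summed level of all 53 RAB GTPases. RAB5A, RAB6A and RAB14 also passed 50 FPKM, so that 8 RAB GTPases did by highest rows. With rows summed RAB11A (127 FPKM) and RAB2A (124 FPKM) still led, but the order below them changed. RAB1A (111 FPKM) and RAB7A (94.0 FPKM) then stood above RAB18 (84.3 FPKM), and RAB6A (66.7 FPKM) stood above RAB10 (59.7 FPKM).

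**Figure D1:**
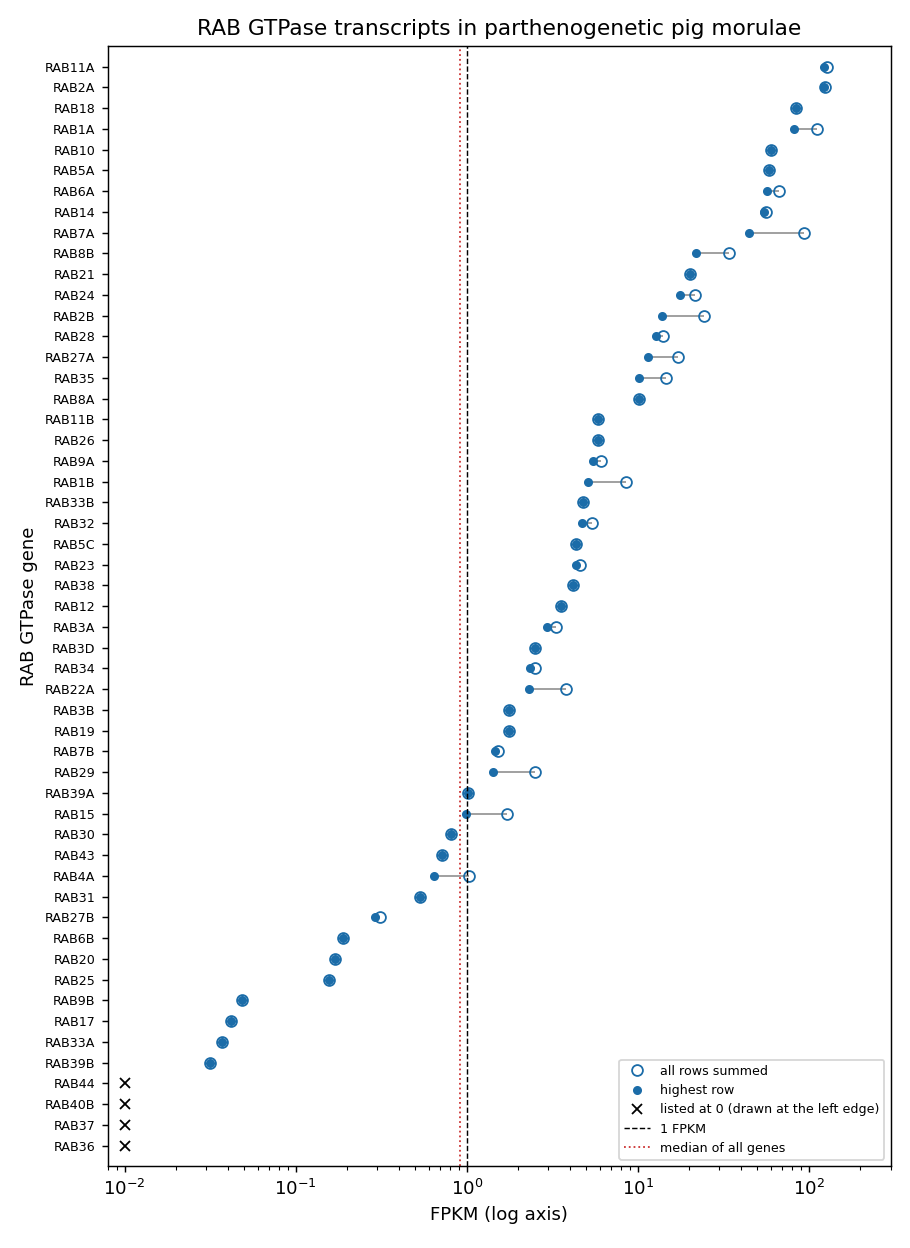
Level of each of the 53 RAB GTPase genes in FPKM on a log axis, filled points for the highest transcript row and open points for all rows summed, with crosses for genes listed at 0. RAB11A and RAB2A lead at 123 FPKM each, 36 genes stand at 1 FPKM or more, and the open point lies far from the filled one for RAB7A.

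Among the 5 paralogue groups set side by side, RAB11 was highest. With paralogues added up, RAB11 (RAB11A, RAB11B and RAB25) came to 129 FPKM, RAB5 (RAB5A and RAB5C) to 62.6 FPKM, RAB7 (RAB7A and RAB7B) to 45.9 FPKM, RAB27 (RAB27A and RAB27B) to 11.7 FPKM and RAB3 (RAB3A, RAB3B and RAB3D) to 7.18 FPKM. RAB11 thus stood 2.07-fold over RAB5 (1.38-fold by the mean over paralogues) and 18.0-fold over RAB3 (42.1-fold by the highest paralogue of each group). RAB5, which acts in fusion of early endosomes, stood 1.36-fold over RAB7, which acts in late endosomes and lysosomes, but this order turned when the rows of a gene were added up, with RAB7 at 95.5 FPKM and RAB5 unchanged at 62.6 FPKM. RAB3, a group known for regulated secretion, was at 0.615 times the level of RAB27 (0.410 by the mean over paralogues and 0.257 by the highest paralogue), which serves secretory granules and lysosome-related organelles. RAB5B and RAB3C were not analysed here, so both sums lack 1 paralogue.

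In 4 of these groups a single gene carried nearly the whole measured level. RAB11A stood at 123 FPKM, against 5.86 FPKM for RAB11B and 0.156 FPKM for RAB25, the epithelial paralogue, and made up 95.4% of its group. RAB5A stood at 58.2 FPKM and RAB5C at 4.38 FPKM, which gave RAB5A 93.0% of a sum that lacks RAB5B. RAB7A at 44.5 FPKM held 96.8% of its group beside RAB7B at 1.45 FPKM, and RAB27A at 11.4 FPKM held 97.5% beside RAB27B at 0.289 FPKM. RAB3 differed in form: RAB3A stood at 2.93 FPKM, RAB3D at 2.49 FPKM and RAB3B at 1.76 FPKM, so the 3 genes lay within 1.66-fold of each other and RAB3A made up 40.8%. How far these gaps exceed variation between embryos cannot be read from 1 merged column.

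**Figure D2:**
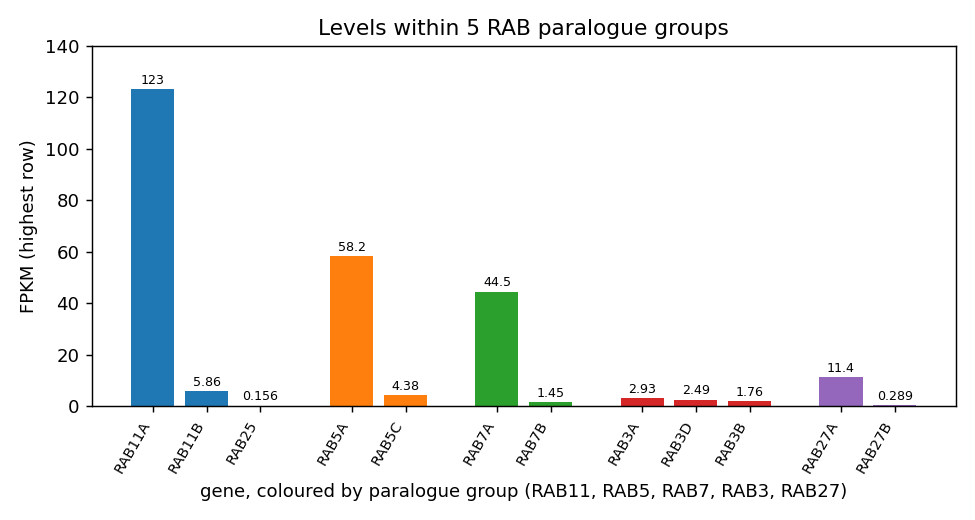
Level in FPKM (highest transcript row, linear axis from 0) of each measured gene of the RAB11, RAB5, RAB7, RAB3 and RAB27 groups, 1 bar a gene, with its value above. RAB11A, RAB5A, RAB7A and RAB27A stand far above their paralogues, while the 3 RAB3 genes lie between 1.76 and 2.93 FPKM.

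Other numbered sets were compared in the same way. Of 12 sets in which at least 2 genes share a RAB number, the highest gene was above 5-fold over the lowest in 10, and the gene with the letter A was highest in 10. The widest gap was that between RAB6A at 56.5 FPKM and RAB6B at 0.189 FPKM, a pair of Golgi RABs of which RAB6B is known chiefly from the nervous system. RAB9A, which returns mannose 6-phosphate receptors to the Golgi, stood at 5.46 FPKM and RAB9B at 0.0483 FPKM. RAB1A exceeded RAB1B (5.09 FPKM) 16.0-fold, and RAB2A exceeded RAB2B (13.8 FPKM) 8.93-fold. The sets not led by an A gene were RAB8, with RAB8B at 22.0 FPKM and RAB8A at 10.1 FPKM, and RAB33, with RAB33B at 4.78 FPKM and RAB33A at 0.0371 FPKM. RAB39A at 1.01 FPKM and RAB39B at 0.0315 FPKM were the lowest pair.

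Several transcript rows carried the level of some members, and here the highest row understates the gene. RAB7A had 4 rows at 44.5, 28.6, 19.7 and 1.22 FPKM, which add up to 94.0 FPKM, so its highest row held 47.3%. RABEP1, the gene of rabaptin-5, which binds RAB5 and its exchange factor, had rows at 5.42, 5.40, 2.80 and 1.22 FPKM among 8, and a sum of 15.4 FPKM. RABGAP1L, TBC1D7, RABEPK and RAB3GAP2 were the other members at 1 FPKM or more with under 50% in the highest row, 6 of the 48 such members with several rows (12.5%), beside 8.69% of all such genes. By class these were 1 of 22 RAB GTPases and 5 of 26 regulators. RAB18, RAB10 and RAB5A each had a single row, and 96.8% of RAB11A and 98.9% of RAB2A lay in 1 row.

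By membrane route, the RABs of the ER and Golgi included the most members and some of the highest. Of 15 measured, 9 stood at 1 FPKM or more (60.0%, beside 48.8% of all genes). They were RAB2A, RAB18, RAB1A, RAB6A, RAB2B, RAB1B, RAB33B, RAB19 (1.76 FPKM) and RAB39A. RAB39A was counted under this route by its list alone, and at 1.01 FPKM it lay just above the threshold. RAB30 (0.803 FPKM) and RAB43 (0.712 FPKM) lay just below, and RAB6B, RAB33A and RAB39B lay at 0.189 FPKM or less, while RAB36 was listed at 0. The median of the 15 was 1.76 FPKM, and their sum of 373 FPKM came to the largest of the routes compared. All 4 measured RABs listed under polarised surface delivery were expressed, with a median of 16.1 FPKM: RAB10, RAB8B, RAB8A and RAB12. RAB12, which acts on transferrin receptor traffic, was counted here by its list alone and was the lowest at 3.54 FPKM. RAB13, a RAB of tight junction traffic, was not analysed here.

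On the endocytic side, 4 of 7 early endosome RABs (57.1%, beside 48.8% of all genes) were expressed. They were RAB5A, RAB21 (20.3 FPKM), which accompanies integrins, RAB5C and RAB22A (2.30 FPKM). RAB31 stood at 0.530 FPKM, RAB20 at 0.170 FPKM and RAB17, an epithelial RAB, at 0.0418 FPKM. Late endosome and lysosome RABs were expressed in 4 of 5 cases (80.0%), with RAB9B as the exception. RAB24, linked to autophagy, stood at 17.6 FPKM between RAB7A and RAB9A.

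Of 8 measured RABs of regulated secretion 5 were expressed (62.5%, beside 48.8% of all genes). The median over the 8 was 2.13 FPKM, and RAB27A was highest at 11.4 FPKM. RAB26, a RAB of secretory granules, stood at 5.82 FPKM, the RAB3 genes followed, and RAB37 and RAB44 were listed at 0. The lysosome-related organelle RABs RAB32 (4.73 FPKM), RAB38 (4.20 FPKM) and RAB29 (1.42 FPKM) were all expressed, as were the RABs linked to cilia, RAB28 (12.7 FPKM), RAB23 (4.35 FPKM) and RAB34 (2.35 FPKM). RAB40B, 1 of 4 listed RABs that act with ubiquitin ligases and the only one measured, was listed at 0.

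**Figure D3:**
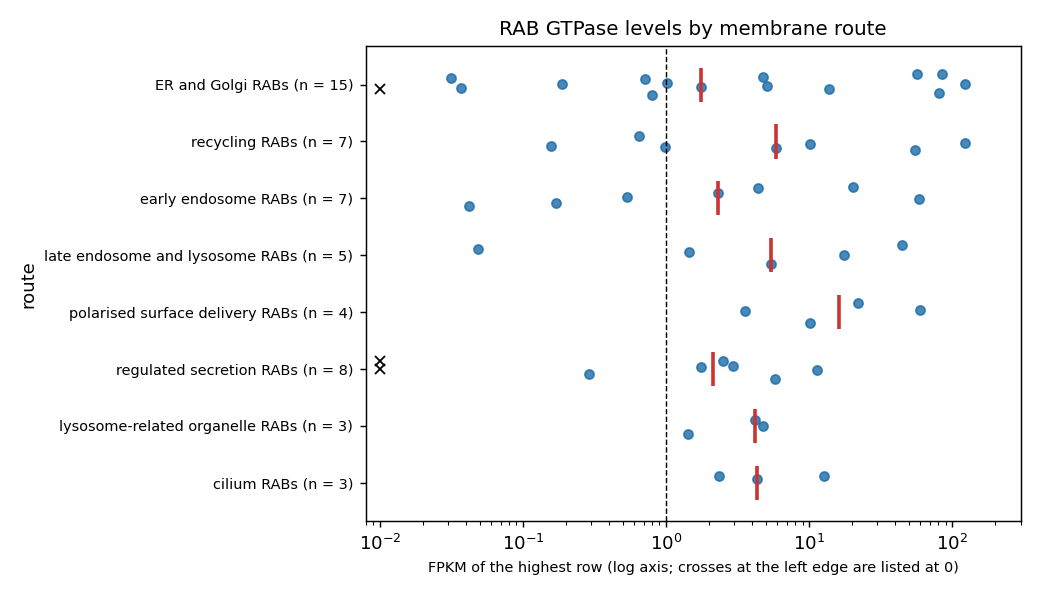
Levels of the RAB GTPases by membrane route in FPKM on a log axis, 1 point a gene, red bars for the median of each route, the dashed line at 1 FPKM and crosses for genes listed at 0. Medians run between 1.76 FPKM for the ER and Golgi, where points spread widest, and 16.1 FPKM for polarised surface delivery.

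The recycling route returns internalised receptors to the surface, fast through RAB4 and RAB35 or slowly through RAB11. Of 7 measured recycling RABs 4 (57.1%, beside 48.8% of all genes) were expressed: RAB11A, RAB14 at 55.0 FPKM, which acts between the Golgi and endosomes, RAB35 at 10.2 FPKM and RAB11B. RAB11A and RAB14 made up 90.9% of the summed level of the 7. RAB15 at 0.991 FPKM, RAB4A at 0.646 FPKM and RAB25 lay below the threshold, and the summed rows of RAB15 (1.71 FPKM) and RAB4A (1.02 FPKM) lay above it. RAB4A, the RAB of fast recycling, thus stood 191-fold below RAB11A, and 124-fold below it with rows summed. RAB4B was not analysed here. The median recycling RAB stood at 5.86 FPKM and the median of the 46 other RAB GTPases at 3.24 FPKM, a difference of 0.70 on the log2(FPKM + 1) scale. That difference was 0.30 when genes under 0.1 FPKM were left out. By highest rows 57.1% of the recycling RABs and 69.6% of the others were expressed, and this order turned with rows summed, at 6 of 7 recycling RABs (85.7%) and still 32 of 46 others (69.6%).

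Of the RAB11 effectors of the FIP family, which link RAB11 to motors and tethers, 1 of 4 measured was expressed (2 of 4 with rows summed), beside 48.8% of all genes. RAB11FIP4, known in human cells to bind both RAB11 and ARF6, stood at 36.7 FPKM. RAB11FIP2 lay at 0.754 FPKM (1.29 FPKM with rows summed), RAB11FIP5 at 0.177 FPKM and RAB11FIP3 at 0.0436 FPKM, and RAB11FIP1 was not analysed here. RAB11FIP4 thus exceeded the next member 48.7-fold by highest rows and 29.5-fold by summed rows.

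Of 23 other genes of the route, chosen by function and outside the member rule, 16 (69.6%) stood at 1 FPKM or more, beside 48.8% of all genes. Their median was 2.89 FPKM. The highest was MYO5A, a myosin motor, at 1444 FPKM, rank 23 of all genes. One of its 7 rows held 98.9% of its sum and the others lay at 6.01 FPKM or less. Transcript lengths were not used here, so the part of that row's length in the value was not tested. The transferrin receptor gene TFRC, the classical recycling cargo, stood at 66.7 FPKM, the small GTPase gene ARF6 at 30.1 FPKM and EHD1, an ATPase that severs recycling tubules, at 10.6 FPKM. All 8 subunits of the exocyst, which tethers vesicles at the surface, were expressed, between 1.99 FPKM for EXOC1 and 6.52 FPKM for EXOC6. GRIPAP1 (0.690 FPKM), EVI5 (0.674 FPKM) and MYO5C (0.284 FPKM) were the highest of the 7 genes below 1 FPKM. MYO5B was not analysed here. Taking RABs, FIP effectors and machinery as one route, 21 of 34 measured genes (61.8%, beside 48.8% of all genes) were expressed.

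The regulators of the family were led by an exchange factor. RAB3IL1, whose mammalian protein GRAB activates RAB8 and RAB3A, stood at 170 FPKM, rank 264, above every RAB GTPase and 1.38-fold over RAB11A. Its 3 rows were at 170, 14.9 and 3.97e-06 FPKM. The related RAB3IP, whose protein Rabin8 links RAB11 to RAB8, stood at 6.90 FPKM, so RAB3IL1 exceeded it 24.6-fold (15.9-fold with rows summed). RAB3GAP1 stood at 8.15 FPKM and RAB3GAP2 at 1.15 FPKM (2.38 FPKM with rows summed), the subunits of a complex that inactivates RAB3 and activates RAB18.

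Other regulators handle the RAB proteins themselves, off the membrane or in attaching their lipid anchor. GDI2, which draws GDP-bound RABs off membranes, stood at 77.5 FPKM. RABIF, a chaperone of RABs such as RAB10 that lack a nucleotide, stood at 16.6 FPKM in a single row. Of 5 genes of lipid anchoring and of the handling of anchored RABs, outside the member rule, all were expressed, beside 48.8% of all genes. RABGGTB, the catalytic subunit of the transferase, stood at 140 FPKM and its partner RABGGTA at 2.87 FPKM. RABAC1, whose product binds prenylated RABs, stood at 37.6 FPKM, and the escort protein genes CHM and CHML at 4.46 and 1.37 FPKM.

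Around RAB5, RABEP1 was expressed and RABEP2 lay at 0.803 FPKM (1.01 FPKM with rows summed), while the exchange factor gene RABGEF1 was not analysed here. Of 8 measured RAB5 effectors 6 were expressed, led by RBSN at 14.5 FPKM, PIK3C3 at 12.0 FPKM, VPS45 at 7.92 FPKM and APPL2 at 6.95 FPKM, with ANKFY1 (0.675 FPKM) and ZFYVE9 (0.408 FPKM) below. Of 7 RAB7 effectors 6 were expressed (85.7%, beside 48.8% of all genes), with PLEKHM1 at 0.945 FPKM below. The highest were the retromer subunit gene VPS35 at 55.1 FPKM, VPS41 at 5.23 FPKM, OSBPL1A at 4.55 FPKM and RUBCN at 1.83 FPKM. RABEPK, whose product binds RAB9, stood at 2.33 FPKM. Of 12 effectors of RAB3 and RAB27 only SYTL4 (5.46 FPKM) and SYTL3 (2.42 FPKM) were expressed, 16.7% beside 48.8% of all genes, with SYTL5 (0.876 FPKM), EXPH5 (0.559 FPKM) and RIMS2 (0.206 FPKM) next.

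TBC1D genes encode the largest class of RAB-inactivating proteins, and 19 of 28 (67.9%, beside 48.8% of all genes) were expressed. Their median level was 1.76 FPKM. At 10 FPKM or more were 2 of the 28 (7.14%), below the 20.2% of all genes, against 17 of the 53 RAB GTPases (32.1%). TBC1D15, which acts on RAB7, stood at 26.7 FPKM and TBC1D13, which acts on RAB35, at 18.5 FPKM. Next were TBC1D23, a golgin-binding adaptor, at 8.13 FPKM, TBC1D22B at 6.72 FPKM, TBC1D9B at 6.69 FPKM and TBC1D22A at 5.66 FPKM. TBC1D20, which inactivates RAB1, stood at 5.58 FPKM and TBC1D7, the third subunit of the tuberous sclerosis complex, at 4.34 FPKM. The remaining expressed genes, TBC1D32, TBC1D8, TBC1D10B, TBC1D31, TBC1D14, TBC1D5, TBC1D9, TBC1D8B, TBC1D10A, TBC1D19 and TBC1D1, lay between 1.34 and 3.94 FPKM. Nearest the threshold among these were TBC1D1 at 1.34 FPKM, TBC1D19 at 1.44 FPKM, TBC1D10A at 1.59 FPKM, TBC1D8B at 1.61 FPKM, TBC1D9 at 1.75 FPKM and TBC1D5 at 1.76 FPKM. Below 1 FPKM were TBC1D17 (0.703 FPKM), TBC1D25, TBC1D12, TBC1D2B, TBC1D2, TBC1D30 and TBC1D10C (0.0285 FPKM), and TBC1D16 and TBC1D21 were listed at 0.

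**Figure D4:**
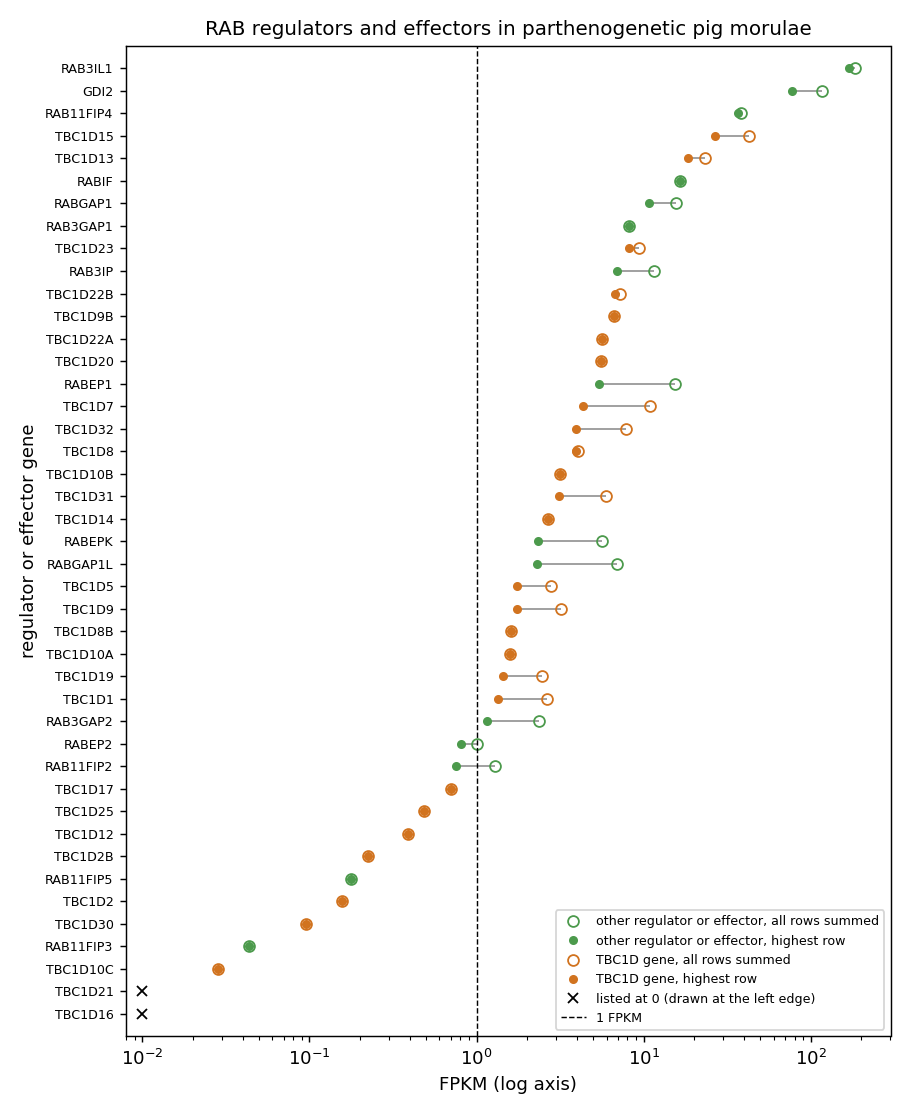
Level of 43 of the 44 regulator and effector genes in FPKM on a log axis, orange for TBC1D genes and green for the others, filled points for the highest transcript row, open points for all rows summed and crosses for genes listed at 0. RAB3IL1 at 170 FPKM and GDI2 at 77.5 FPKM lie right of all TBC1D genes, the highest of which is TBC1D15 at 26.7 FPKM.

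RABGAP1, a TBC-domain gene named outside the TBC1D series, stood at 10.8 FPKM and RABGAP1L at 2.30 FPKM, where its highest row held 33.3% of a sum of 6.90 FPKM. Of 8 further TBC-domain genes outside the member rule 2 were expressed (25.0%, beside 48.8% of all genes), TBCK at 4.14 FPKM and GRTP1 at 1.04 FPKM. USP6NL (0.954 FPKM), EVI5L (0.852 FPKM) and SGSM3 (0.686 FPKM) came next. With rows summed USP6NL (1.23 FPKM) and EVI5 (1.21 FPKM) also passed, which made 4 of 8. Exchange factors with a DENN domain passed in 9 of 18 cases, a share near the 48.8% of all genes, led by DENND2C at 8.29 FPKM, AVL9 at 7.81 FPKM, DENND1A at 2.87 FPKM and DENND4C at 2.84 FPKM. DENND5A (0.720 FPKM), DENND4A (0.575 FPKM) and SBF2 (0.507 FPKM) lay next below 1 FPKM. Other exchange factors passed in 9 of 15 cases (60.0%, beside 48.8% of all genes). They were led by RIN2, which acts on RAB5, at 13.0 FPKM, then RGP1 (4.22 FPKM), GAPVD1 (4.16 FPKM) and SH3BP5, which acts on RAB11, at 3.57 FPKM. HPS4 (0.848 FPKM) and RIN3 (0.151 FPKM) lay below.

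Some 20 members lay between 0.5 and 2 FPKM, so their side of the threshold rests on small differences. Just above it were RAB39A, RAB3GAP2, TBC1D1, RAB29, TBC1D19 and RAB7B, between 1.01 and 1.45 FPKM. Just below it were RAB15, RAB30, RABEP2, RAB11FIP2, RAB43, TBC1D17, RAB4A and RAB31, between 0.530 and 0.991 FPKM. With rows summed, 4 members crossed to 1 FPKM or more: RAB15, RABEP2, RAB11FIP2 and RAB4A. The 6 members listed at 0 were RAB36, RAB37, RAB40B, RAB44, TBC1D16 and TBC1D21. None of them lies only in the last 474 rows of the table, which are all at 0 and include the mitochondrially encoded genes.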

How the data were processed

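The authors deposited 1 table of FPKM values with 1 row per Ensembl transcript, per the file headers, and its name says that the 4 libraries of the group were merged. Per the labels' protocols the libraries were made with Smart-seq2. The submitters' processing notes name TopHat2 2.1.1 and Cufflinks 2.2.1 and the build susScr11 among tools and builds for all data types. Which of them made this table, its depth and the transcript lengths were not given in the sources used here. Some 4534 rows lie above 0 and under 1e-06 FPKM, and numbers of reads were not worked back from the FPKM values.

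A gene's level is its highest row, and expressed means 1 FPKM or more. Python 3.11.15 and pandas 2.3.3 were used, and the collapse to genes was tested on simulated data. The 15877 names include 401 Rfam families. Lists, members and the rule for named genes (all members of the paralogue, recycling, GDI, RAB3, RAB5 and RABGAP lists, the highest RABs and TBC1D genes, members near 1 FPKM, at 0 or crossing it with summed rows, and the 4 highest and next 3 below 1 FPKM of each other list) were chosen with earlier results of these data known. RAB3IP has a symbol of the RAB GTPase form and was counted with the regulators. Alternatives were other thresholds, summed rows, scaling to TPM, the trailing rows and a floor of 0.1 FPKM. No pig sequence was used here, and some genes that the rule takes are counted but not named.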

Additional observations from a re-analysis of the deposited data

How the results depend on the processing

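No paired analysis was possible because the 4 libraries share 1 column, and leaving out a library could not be run for the same reason. The count of expressed members stayed within 1.5 times at 0.5 FPKM (75, or 77.3% beside 56.5% of all genes) and with summed rows (71, or 73.2% beside 50.6%). It also did so scaled to TPM (77, or 79.4% beside 61.3%), which multiplies all values by 1 factor and so acts as a lower threshold. Without trailing rows (67, or 69.1% beside 49.5%) the count could not change, since no member lies only in those rows. With a floor of 0.1 FPKM the count was 67 of 84, and the 67 was again fixed because the floor lies below the threshold. The shares then lay closer, at 79.8% of members beside 68.1% of all genes. At 5 FPKM the count was 37 of 97 (38.1%, beside 28.4% of all genes), with 21 RAB GTPases and 16 regulators. Counting RAB3IP as a RAB GTPase, chosen after seeing the data, gave 37 of 54 RAB GTPases and 30 of 43 regulators.

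RAB11 over RAB5 was 2.13 with summed rows, 1.38 with means and 2.12 with the highest paralogues. RAB5 over RAB7 turned to 0.655 with summed rows, since RAB7A has several rows and RAB5A 1, and was 1.31 with the highest paralogues. RAB11 over RAB3 was 17.6 with summed rows and 42.1 with the highest paralogues. RAB3 over RAB27 was 0.436, 0.410 and 0.257 with summed rows, means and the highest paralogues. The recycling RABs exceeded the other RAB GTPases by 0.56 with summed rows, 0.84 with a pseudocount of 0.1, 0.59 with means and 0.30 with genes under 0.1 FPKM left out. Where no cause is named, the cause was not tested. Summed rows were applied to the lists after seeing the data.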
